A study of Mus musculus with 9 samples.

Results

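Chromatin accessibility was examined at 9 genes of the contractile myofibroblast programme in primary mouse embryonic fibroblasts (MEFs): Acta2, Actg2, Tagln, Cnn1, Myl9, Tpm1, Tpm2, Vcl and the transcription factor gene Srf. They are 9 of 21938 protein-coding genes annotated in GENCODE M21 on mm10. The genes were chosen by name. A peak was assigned to a gene when it overlapped the 1 kb on either side of any of its annotated transcription start sites (TSSs), and a peak belonged to the locus when it overlapped the gene body or the 10 kb on either side. Peaks of the 4 lists that overlapped or touched were joined into sites, and 78 of 128522 sites lay in these loci.

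Smooth-muscle actins, the calponin and transgelin proteins that bind them, tropomyosins, myosin light chain and the adhesion protein vinculin make up the stress fibres with which fibroblasts pull on their matrix. Their genes are known targets of serum response factor (SRF). SRF binds the CArG box, a sequence that starts with CC, ends with GG and has only A or T in between, and its cofactors of the MRTF family enter the nucleus when actin polymerises.

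ATAC-seq, in which the Tn5 transposase inserts adapters into open chromatin, had been carried out on WT MEFs and on Anp32e null MEFs, with 3 libraries each. ANP32E is a histone chaperone that removes the histone variant H2A.Z from chromatin. Null cells had further been given either a non-targeting siRNA pool (NT siRNA, 1 library) or a pool of siRNAs against H2A.Z (H2A.Z siRNA, 2 libraries), so both siRNA groups carry the Anp32e deletion and neither has a WT counterpart. All cells were primary cultures from embryos at a passage below 8, and the mice or embryos behind each library are not given in the sources used here.

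Libraries of a group had been merged before peaks were called, so each group was 1 list and no difference below has a replicate check. The lists held 84040 peaks for WT and 82567 for Anp32e null on assembled chromosomes, while the H2A.Z siRNA list held 108409 and the NT siRNA list 89272. Fragment pileups recovered from the deposited fold and p-value gave a genome background of 8.85 fragments in WT, 5.12 in Anp32e null, 3.88 with NT siRNA and 17.8 with H2A.Z siRNA, so H2A.Z siRNA was the deepest list. All 9 fibroblast marker genes examined, among them Col1a1, Col1a2 and Pdgfra, had a TSS peak in every list. Among markers of other cell types, Myog and Ptprc had none, Myod1 had one in Anp32e null alone (percentile 6.43) and Spi1 with H2A.Z siRNA alone (percentile 6.14), whereas epithelial Epcam and Cdh1 and endothelial Cdh5 had one in every list. Endothelial Pecam1 had one in all but Anp32e null, epithelial Krt18 in the siRNA lists alone, and of the cardiac markers Myh6 had one in WT and H2A.Z siRNA and Nkx2-5 in H2A.Z siRNA alone. A TSS peak is not expression, and fewer open cells and less accessible chromatin per cell cannot be told apart in bulk libraries.

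An exact CArG box lay close to the start of 5 of the 9 genes. Within 250 bases on either side of the annotated gene start, Tagln, Actg2 and Srf held 2 boxes each, and Myl9 and Vcl held 1 each, whereas 2.02% of all protein-coding genes held any. The windows that carry these boxes are shown because they are the sequence through which SRF is known to reach these promoters. Each is read on the strand of its gene from the GRCm38 reference, with the box in capitals and 10 bases on either side. Negative positions lie upstream of the gene start.
Srf, centred at -64 from its start, chr17:46556225-46556254, minus strand: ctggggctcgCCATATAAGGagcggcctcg
Srf, at -44, chr17:46556205-46556234, minus strand: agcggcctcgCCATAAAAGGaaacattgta
Vcl, at -222, chr14:20929161-20929190, plus strand: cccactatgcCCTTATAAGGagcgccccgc
Myl9, at -112, chr2:156775293-156775322, plus strand: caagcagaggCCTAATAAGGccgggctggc
Tagln, at -108, chr9:45936151-45936180, minus strand: agggtcctgcCCATAAAAGGtttttcccgg
Tagln, 16 bases into the annotated 5′ UTR, chr9:45936028-45936057, minus strand: gtgtctttccCCAAATATGGagcctgtgtg
Actg2, at -64, chr6:83536314-83536343, minus strand: aaaaaaaacaCCTTATATGGtaatattgct
Actg2, at -26, chr6:83536277-83536306, minus strand: cgtcagctggCCTTTTTAGGgactctgttt

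Cnn1, Acta2, Tpm1 and Tpm2 had exact boxes only further away. Those of Cnn1 and Acta2 are shown because their peaks differ between the lists or rank high in all of them, and an intronic box of Srf because its peak has a higher pileup than the Srf TSS. Tpm1 held one box in an intron 8362 bases past its start, and Tpm2 held 3, at -618, at -7768 and 10654 bases past its start. The Cnn1 box lay in an intron 914 bases past the gene start. Acta2 held one box 1298 bases past its start, also in an intron, and one upstream, at -10248. A further Srf box lay in an intron 2818 bases past its start. With at most 1 mismatch allowed, a rule added once the exact matches had been seen, 7 of 9 genes held a box near the start, against 28.7% of all protein-coding genes. Both Acta2 matches of that kind lay in the annotated 5′ UTR.
Cnn1, intron, chr9:22100116-22100145, plus strand: agccgccgcgCCTTATAAGGcggccttggg
Acta2, intron, chr19:34254278-34254307, minus strand: gtgtgttttaCCTAATTAGGaaatgctccc
Acta2, distal upstream, chr19:34265824-34265853, minus strand: agctgccttcCCTTATAAGGttaaggttct
Srf, intron, chr17:46553343-46553372, minus strand: gcctccgtgcCCATATAAGGccggttcggg
Acta2, 138 bases past the start, 1 mismatch, chr19:34255438-34255467, minus strand: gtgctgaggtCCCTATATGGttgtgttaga
Acta2, 188 bases past the start, 1 mismatch, chr19:34255388-34255417, minus strand: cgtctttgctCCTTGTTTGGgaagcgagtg

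Peaks at the TSS were present for 8 of 9 members in WT and for 9 of 9 in each of the other lists. Among all protein-coding genes the share with a TSS peak was 67.2% in WT, 66.7% in Anp32e null, 66.8% with NT siRNA and 68.4% with H2A.Z siRNA. The member without a WT peak was Actg2. Peaks were then ranked within their own list by fold enrichment, the summit pileup over the local background, so that the 100th percentile is the highest fold in that list. For 13986 genes with a TSS peak in all 4 lists, the median TSS percentile was 82.8 in WT, 81.1 in Anp32e null, 80.7 with NT siRNA and 83.0 with H2A.Z siRNA. The 8 members with a peak in all lists had medians of 65.0, 67.4, 56.9 and 62.0, so by fold they ranked below a typical promoter in every list, with Vcl above it throughout and Acta2 above it in WT alone. This order turned with the measure. Ranked by p-value, the members' median was 80.1 in WT and 83.1 in Anp32e null, below the all-gene medians of 86.5 and 85.9, but 90.95 and 91.9 with NT siRNA and H2A.Z siRNA, above 89.1 and 90.7. In scaled pileup, the multiple of the genome background, the members' median was 16.8 in WT and 27.8 in Anp32e null, against 17.4 and 26.8 over all genes, and 99.6 and 83.0 in the siRNA lists, against 65.2 and 53.8. It was thus below the all-gene median in WT alone.

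**Figure D1:**
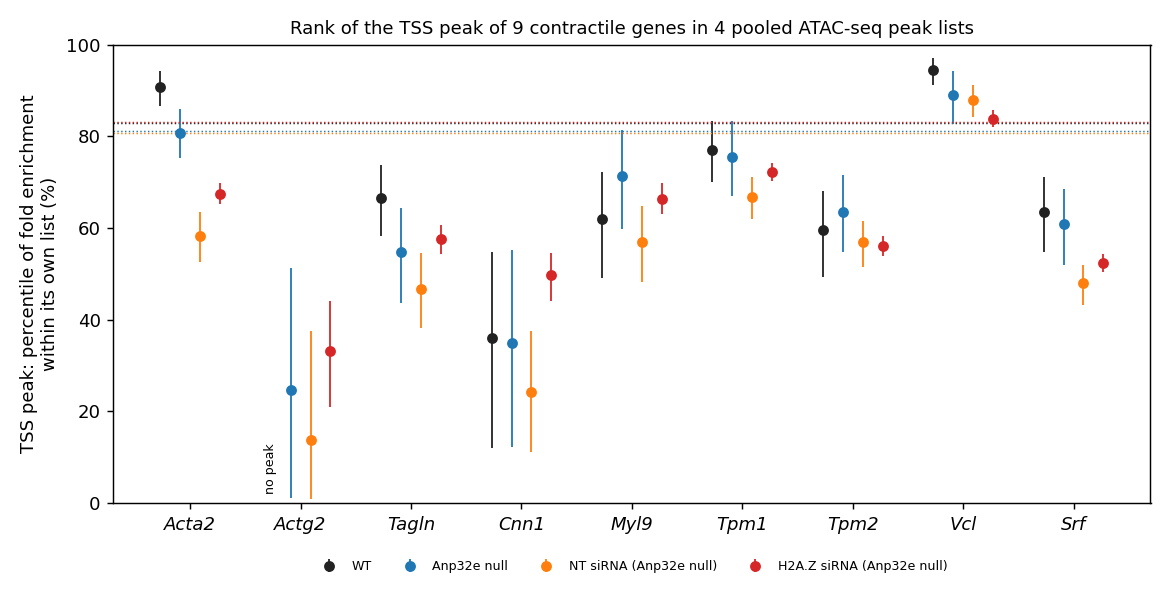
Percentile of fold enrichment of the TSS peak of each gene within its own list (vertical axis, %), for the 4 lists (colours). Bars are exact 95% Poisson intervals of the summit pileup and cover counting error only, and dotted lines mark the median of 13986 genes. Vcl lies above the lines, Cnn1 and Actg2 lie lowest, and Acta2 falls from 90.7 in WT to 58.2 with NT siRNA.

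Acta2 encodes smooth-muscle alpha actin, the usual marker of myofibroblasts (ENSMUSG00000035783.9, chr19:34241090-34255590, minus strand). Its TSS peak stood at percentile 90.7 in WT (counting interval 86.5 to 94.3), 80.8 in Anp32e null (75.2 to 85.9), 58.2 with NT siRNA (52.7 to 63.5) and 67.5 with H2A.Z siRNA (65.2 to 69.7). The WT and null intervals do not overlap each other, and neither overlaps those of the siRNA lists. In multiples of the genome background, the summit pileup was 28.9 in WT, 54.7 in Anp32e null, 90.4 with NT siRNA and 83.8 with H2A.Z siRNA. The local background around it was 2.77, 5.48, 10.8 and 10.3 times the genome background in the same order. From WT to Anp32e null the percentile was thus lower while the pileup and the local background were both higher.

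Actg2 encodes the gamma actin of visceral smooth muscle (ENSMUSG00000059430.14, chr6:83512905-83536265, minus strand). No WT peak lay at its TSS. The peak in Anp32e null had a pileup of 21 fragments (percentile 24.6), that with NT siRNA 18 fragments (13.7) and that with H2A.Z siRNA 70 fragments (33.2). These were 4.10, 4.64 and 3.93 times the genome background. In WT, summits from 2.15 times the genome background upwards had been called elsewhere at that background. The WT pileup at Actg2 is not known, since a list gives values only where a peak was called. Why WT lacks the peak was not tested. Of 15039 protein-coding genes with a TSS peak in WT or Anp32e null, 2.04% had it in Anp32e null and not in WT.

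The Actg2 peaks did not cover the same bases. The Anp32e null peak spanned chr6:83536428-83536873 and ended upstream of both exact CArG boxes shown above. After NT siRNA the peak ran from 83536129 to 83536893 and with H2A.Z siRNA from 83536030 to 83536893, and both covered the boxes.

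Tagln encodes transgelin, also called SM22 alpha, an actin-binding protein of smooth muscle (ENSMUSG00000032085.5, chr9:45929619-45936058, minus strand). Its TSS percentile was 66.4 in WT, 54.7 in Anp32e null, 46.7 with NT siRNA and 57.5 with H2A.Z siRNA. The summit pileup was 17.1, 22.5, 46.4 and 39.6 times the genome background in the same order. The peak was 1774 to 1978 bp wide in the 4 lists, and both exact boxes lay inside it in each. The summit was 86 bases past the gene start in WT but upstream of it with NT siRNA (-1045) and H2A.Z siRNA (-976), at the far end of the same peak.

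Cnn1 encodes calponin 1, a regulator of smooth-muscle contraction (ENSMUSG00000001349.5, chr9:22099216-22109630, plus strand). Its percentiles were low, at 36.0 in WT, 34.99 in Anp32e null, 24.2 with NT siRNA and 49.7 with H2A.Z siRNA. Pileups were 48, 34, 65 and 282 fragments, and the WT and null counting intervals were wide, from 12.02 to 54.7 and from 12.2 to 55.2. Peaks at the gene start and at a further start downstream were separate in 3 lists and were 1 peak of 1726 bp with H2A.Z siRNA. The higher of the pair was at the gene start in WT and NT siRNA and at the downstream start in Anp32e null, where the intronic CArG box lies, so the WT and null values refer to different positions.

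Myl9 encodes the regulatory myosin light chain of smooth muscle and stress fibres (ENSMUSG00000067818.6, chr2:156775420-156781658, plus strand). Its percentile was 62.0 in WT, 71.3 in Anp32e null, 56.8 with NT siRNA and 66.4 with H2A.Z siRNA. The pileup was 8.82, 16.2, 40.5 and 36.3 times the genome background. Its exact box lay inside the peak in every list. The pileup at Myl9 was below the median of all genes in each list, and its percentile was highest in Anp32e null.

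Tpm1 and Tpm2 encode tropomyosins, which wind along actin filaments. Tpm1 (ENSMUSG00000032366.15, chr9:67022590-67049406, minus strand) had percentiles of 77.1 in WT, 75.4 in Anp32e null, 66.7 with NT siRNA and 72.3 with H2A.Z siRNA, at 17.9, 26.0, 123 and 109 times the genome background. Its internal promoter, 5.53 kb past the gene start, gave a further TSS site in every list, at 58.2, 53.2, 48.4 and 46.1. Tpm2 (ENSMUSG00000028464.16, chr4:43514711-43523765, minus strand) varied least in percentile, at 59.7, 63.6, 56.9 and 56.1. Its pileup was 14.9, 29.5, 109 and 82.2 times the genome background. The Tpm2 peak was the widest of the 9 in every list, 2052 to 2466 bp.

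Vcl encodes vinculin, which links actin to integrin adhesions (ENSMUSG00000021823.10, chr14:20929398-21033676, plus strand). It ranked highest of the members in every list, at 94.4 in WT, 89.1 in Anp32e null, 87.8 with NT siRNA and 83.8 with H2A.Z siRNA. Of the pairs of lists, only WT and H2A.Z siRNA had intervals that did not overlap (91.1 to 96.98 and 81.9 to 85.7). The pileup was 32.9 and 34.8 times the genome background in WT and Anp32e null, and 175 and 113 with NT siRNA and H2A.Z siRNA.

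Srf, the transcription factor itself (ENSMUSG00000015605.6, chr17:46548329-46556175, minus strand), stood at 63.6 in WT, 60.9 in Anp32e null, 48.1 with NT siRNA and 52.3 with H2A.Z siRNA. Its pileup was 16.5, 32.3, 139 and 109.7 times the genome background, and its local background 3.08, 4.83, 20.2 and 19.2 times. Among genes with a TSS peak in the list, the percentile of the Srf fold was 24.6, 24.6, 14.3 and 14.4, whereas that of its scaled pileup was 50.2, 60.5, 90.5 and 89.8. A strong site lies in a Srf intron. At chr17:46552809-46553725 it reached 74.99, 62.1, 50.2 and 59.99 within the lists, with a pileup above that of the Srf TSS in each, and it covers the intronic CArG box shown above. The TSS of the microRNA gene Mir6976 lies within 1 kb of it.

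**Figure D2:**
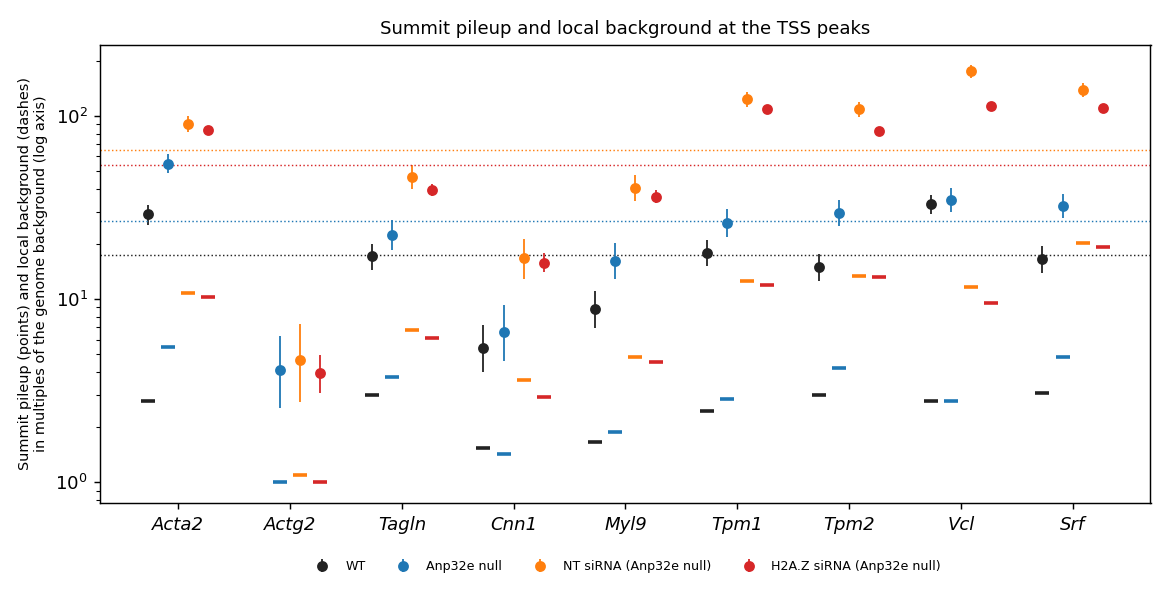
Summit pileup (points, with exact 95% Poisson intervals) and local background (dashes) at the TSS peak of each gene, in multiples of the genome background of the list (log axis). Dotted lines are medians of the pileup over 13986 genes. For Srf, Tpm1, Tpm2, Vcl and Acta2 both points and dashes lie high in the siRNA lists, and Actg2 stays between 3.93 and 4.64 in the 3 lists where it has a peak.

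Loss of ANP32E was examined by comparing Anp32e null with WT. Of the 8 members with a TSS peak in both lists, Tpm2 and Myl9 had a higher percentile in Anp32e null and 6 a lower one. Over 14317 genes, 37.6% were higher. The median difference was -2.19 points for the members against -1.36 over those genes. The 9 fibroblast markers had a median difference of -7.42 points, with 3 of them (Prrx1, Pdgfra and Vim) 10 points or more lower and 1 (Col3a1) higher. Cdh5 (-14.7) and Epcam (-23.6) were lower too, whereas Cdh1, the other epithelial marker with a peak in both, was at 36.7 and 38.5, and the part of such cells in the members' values was not tested. A difference of 10 points or more was counted as a call. Tagln alone passed it, with -11.8 points (66.4 to 54.7) and a counting interval from -30.1 to 6.17, and no member passed it upwards. Over all genes, 11.1% were 10 points or more lower and 6.52% higher, so 1 of 8 is close to the background. Acta2 (-9.92 points) and Myl9 (9.30 points) were just short of the mark. Acta2 was the only member whose counting interval (-19.1 to -0.60) did not reach 0, and when peaks were ranked by p-value instead its difference was 0.12 points and Tagln was no longer called.

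Scaled pileups gave another picture of the same peaks. Over all genes the null pileup was 1.56 times the WT pileup (median log2 ratio 0.65), and it was higher in 95.1% of them. The 8 members had a median log2 ratio of 0.71 and ratios from 1.06 to 1.98. Relative to the all-gene median, 4 members were above and 4 below. Acta2 was 1.89-fold (interval 1.59 to 2.25), which was 0.27 above that median on the log2 scale (0.02 to 0.52), and 84.7% of genes had a smaller ratio. Vcl was 1.06-fold (0.873 to 1.28), -0.57 relative to the median on the log2 scale (-0.84 to -0.29), and only 6.59% of genes had a smaller ratio.

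Srf was 1.95-fold (1.55 to 2.46) and Tpm2 1.98-fold (1.56 to 2.52) in Anp32e null over WT, and their intervals reached the all-gene median. Myl9 was 1.84-fold (1.33 to 2.54), Tpm1 1.46-fold (1.15 to 1.84), Tagln 1.32-fold (1.02 to 1.69) and Cnn1 1.22-fold (0.765 to 1.94). Acta2 and Vcl were thus the members whose pileup differed from the typical promoter beyond counting error, in opposite directions. When depth was instead scaled at the 1000 highest shared sites, the members' median log2 ratio was -0.06, so the direction of their common shift depends on the scaling, while their order does not.

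H2A.Z depletion was examined by comparing H2A.Z siRNA with NT siRNA, both in Anp32e null cells. Of the members, 7 of 9 had a higher percentile with H2A.Z siRNA, beside 67.0% of 14559 genes. The median difference was 9.32 points for the members against 2.08 over those genes. The mark was passed by 3 of 9: Cnn1 was 25.5 points higher (24.2 to 49.7), Actg2 19.5 points (13.7 to 33.2, counting interval of the difference -16.6 to 43.3) and Tagln 10.8 points (46.7 to 57.5, -0.24 to 22.6). No member was 10 points or more lower. Over all genes 14.1% passed the mark upwards and 2.56% downwards. Cnn1 and Acta2 (9.32 points) were the members whose counting interval did not reach 0, from 6.61 to 43.5 and from 1.68 to 17.1 points. The 9 fibroblast markers had a median difference of 9.45 points, close to that of the members. Both endothelial markers were 10 points or more higher, Cdh5 from 26.7 to 54.9 and Pecam1 from 47.6 to 77.2, and the part of such cells in the members' values was not tested.

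Vcl and Tpm2 were the members with a lower percentile with H2A.Z siRNA, with -4.00 and -0.81 points. The H2A.Z siRNA list was the longest. With the same number of peaks taken from each list the median was 1.89 points, Cnn1 was the only call upwards and Tpm2 was called downwards. Ranked by p-value, Cnn1 and Actg2 remained called and the median was 3.52 points.

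Scaled pileups were lower with H2A.Z siRNA for all 9 members, as they were for most genes: the all-gene median log2 ratio was -0.31, and 13.1% of genes were higher. The members' ratios lay between 0.648 and 0.945, with a median log2 ratio of -0.23. Vcl was lowest, at 0.648-fold (0.594 to 0.708), which was -0.32 relative to the all-gene median on the log2 scale (-0.44 to -0.19). Acta2 was 0.927-fold (0.825 to 1.04), 0.20 above the median (0.03 to 0.37). For the other 7 members the interval reached the all-gene median. Scaled at the 1000 highest shared sites, the members' median log2 ratio was 0.18, and scaled at all shared TSS sites 0.08, so this direction too rests on the choice of scaling.

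**Figure D3:**
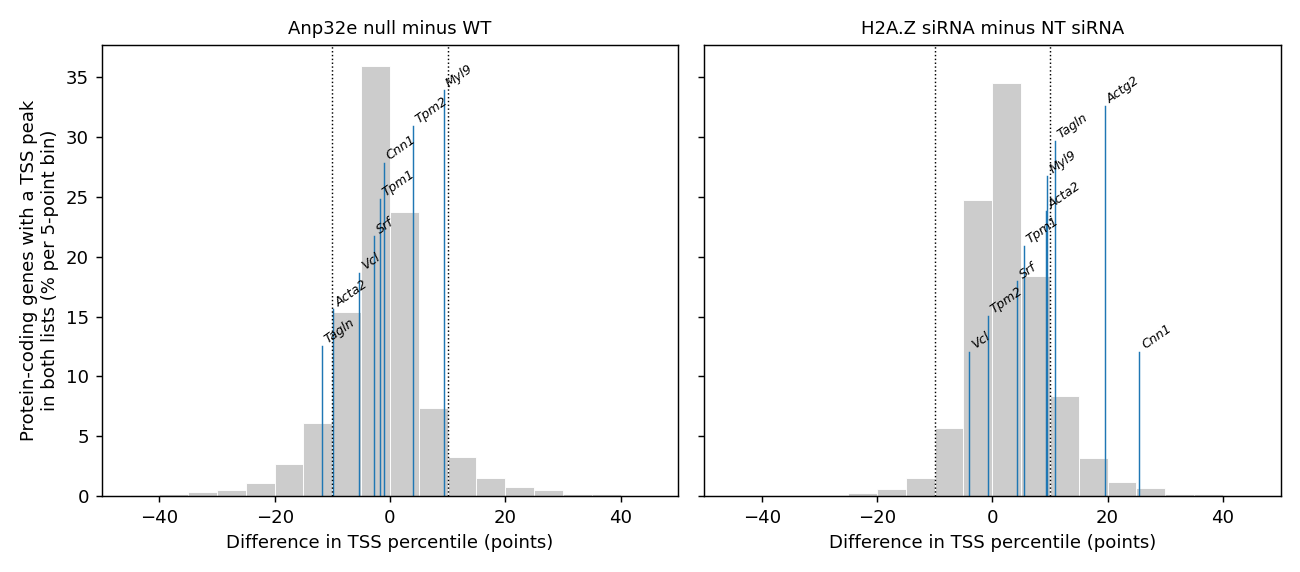
Difference in TSS percentile between the lists of a pair (horizontal axis, points). Grey bars give the share of protein-coding genes per 5-point bin (14317 genes on the left, 14559 on the right), blue lines mark the members at heights that only separate the names, and dotted lines mark 10 points. On the left the members straddle 0 with Tagln below the mark, and on the right Cnn1, Actg2 and Tagln lie above it.

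The step from untransfected Anp32e null to NT siRNA, both without ANP32E, was set beside these after the values had been seen. All 9 members had a lower percentile with NT siRNA, from -22.6 points for Acta2 to -1.26 for Vcl. Their median was -10.8 against -0.52 over 14219 genes, of which 46.1% had a higher percentile. Ranked by p-value, 7 of the 9 were instead higher with NT siRNA, from 1.19 points for Tagln to 11.3 for Tpm1, while Acta2 (-5.22) and Actg2 (-9.68) remained lower, so the direction turns with the ranking measure. The scaled pileup was higher for all 9, as it was for 93.4% of all genes. Vcl was 5.02-fold (4.25 to 5.96), Tpm1 4.74-fold (3.90 to 5.79), Srf 4.30-fold (3.60 to 5.15) and Tpm2 3.68-fold (3.05 to 4.47), where the all-gene median was 2.12-fold. Actg2 was 1.13-fold (0.568 to 2.23) and Acta2 1.65-fold (1.41 to 1.94). The local background was higher too, by a median log2 ratio of 1.36 at the members against 0.72 over all genes. By fold percentile, the fibroblast markers had medians of 49.7 in Anp32e null and 48.2 with NT siRNA. The 3 smooth-muscle markers had medians of 40.2 and 57.5. Cdh1 (38.5 and 68.2), Epcam (30.6 and 50.8) and Cdh5 (12.6 and 26.7) were higher with NT siRNA. The part of such cells in the members' values was not tested. Transfection and the number of merged libraries differ together between these groups and cannot be told apart.

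The median member TSS peak was wider than the all-gene median in every list. For the 8 members with a peak in all lists the median width was 1421.5 bp in WT, 1330.5 bp in Anp32e null, 1479.5 bp after NT siRNA and 1961.5 bp after H2A.Z siRNA, against 1174, 1138, 1104 and 1324 bp over all such genes. Narrower than the all-gene median were Actg2 wherever it had a peak (446 to 864 bp), Cnn1 in all lists but H2A.Z siRNA (345 to 801 bp) and Srf in WT (1122 bp). All 9 were wider with H2A.Z siRNA than with NT siRNA, as were 94.4% of all genes, and that list is the deepest. In Anp32e null 3 of 8 were wider than in WT, beside 40.3% of all genes.

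Away from their own TSSs the loci differed more between lists. Of the 78 sites, 12 were at a member's own TSS, 12 were within 1 kb of another gene's TSS and 54 were distal. Of these the H2A.Z siRNA list had 72 and the NT siRNA list 48, with 43 in WT and 36 in Anp32e null. Sites called in all 4 lists made up 28 of 78 (35.9%), against 45.9% of all sites. Of 48 member sites called in WT or Anp32e null, 12 were in WT alone (25%) and 5 in Anp32e null alone (10.4%), where the shares over all sites were 16.4% and 14.6%. Srf, Tpm1 and Vcl gave 8 of the 12 WT sites, and Acta2 and Tagln gave 2 each of the 5 null sites. Of 74 sites called with NT siRNA or H2A.Z siRNA, 2 were with NT siRNA alone (2.70%) and 26 with H2A.Z siRNA alone (35.1%), beside 4.16% and 23.5% of all sites. With pileups scaled down until the lists had the same genome background, the only depth statistic matched, the 26 became 15, and with equal list lengths 3. Under each of these settings the 12 sites in WT alone became 9, and those in Anp32e null alone stayed at 5.

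Acta2 has its highest-ranked site 10.3 kb upstream, at chr19:34265548-34266226 in intergenic sequence. It stood at percentile 98.3 in WT, 96.1 in Anp32e null, 91.0 with NT siRNA and 91.3 with H2A.Z siRNA, above the Acta2 TSS in each list. The distal CArG box printed above lies 58 bases from its summit. Its pileup was 22.7, 39.5, 62.1 and 43.2 times the genome background. An intronic Acta2 site 11.3 kb past the gene start ranked at 41.6 in WT, 1.47 in Anp32e null, 53.0 with NT siRNA and 51.8 with H2A.Z siRNA. Its scaled pileup was 6.67 in WT and 7.62 in Anp32e null, so it was not lower there by that measure. The Acta2 TSS peak itself reached the intronic box only in the siRNA lists.

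The Vcl locus, with a gene body of 104 kb, holds 24 of the 78 sites. The H2A.Z siRNA list had 23 and the NT siRNA list 12, with 8 in WT and 5 in Anp32e null. With equal list lengths the siRNA counts were 11 and 9. Intronic sites 9.27 kb and 44.6 kb past the start were called in every list, the former at 81.1, 62.9, 81.4 and 86.4 and the latter at 72.5, 62.9, 75.9 and 62.9. A further 7 sites were called in both siRNA lists and in neither untransfected list, which is 29.2% of the Vcl sites against 8.99% of all sites. Over the 9 loci such sites were 10 of 78 (12.8%), with 1 each at Acta2, Actg2 and Tpm1 and none at the other 5 genes. The strongest, 64.2 kb past the start, had 35 fragments with NT siRNA (percentile 52.3) and 179 with H2A.Z siRNA (73.9). Another of them, 89.8 kb past the start at chr14:21018825-21019720, holds an exact CArG box 18 bases from its summit. Its percentiles were 36.7 and 53.7.

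A Cnn1 site 3.03 kb upstream ranked above the Cnn1 TSS in each list, at 45.3 in WT, 65.9 in Anp32e null, 71.4 with NT siRNA and 63.9 with H2A.Z siRNA. The highest site of the Actg2 locus (94.3 to 96.5) lies at the TSS of Dguok and the highest of the Cnn1 locus (71.1 to 88.9) at that of Elof1. Tpm2 had a site 6.67 kb upstream at 6.03 in WT, 46.5 in Anp32e null, 48.0 with NT siRNA and 65.5 with H2A.Z siRNA, and Myl9 one 8.70 kb upstream at 22.7, 9.80, 54.2 and 55.0. Both rank higher in the siRNA lists than in WT.

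The remaining strongest sites per gene were weaker or belonged to neighbours. Just past the end of Actg2, a site at chr6:83512326-83512756 was called in the siRNA lists alone, at 27.0 and 56.5. Tpm1 had a site 29.3 kb downstream of its start at 42.3, 41.7, 15.9 and 5.88, so it ranked lower in the siRNA lists. Its scaled pileup was 5.88, 7.23, 16.7 and 8.81, so it was not lower there by that measure. Another Tpm1 site, 36.9 kb downstream, stood at 11.6 in WT, 39.8 with NT siRNA and 39.2 with H2A.Z siRNA but was absent from Anp32e null. The site at the Pcsk7 TSS in the Tagln locus stood at 22.3, 50.4, 39.8 and 48.6, and that at the Car9 TSS in the Tpm2 locus at 40.4, 56.2, 53.5 and 60.4. A Srf site at the Cul9 TSS was called in WT (15.9) and in the siRNA lists (18.5 and 28.6). A Myl9 site 12.5 kb past the start was called with H2A.Z siRNA alone (23.7), and a further Tagln site near Pcsk7 in Anp32e null (23.4) and H2A.Z siRNA (6.73).

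**Figure D4:**
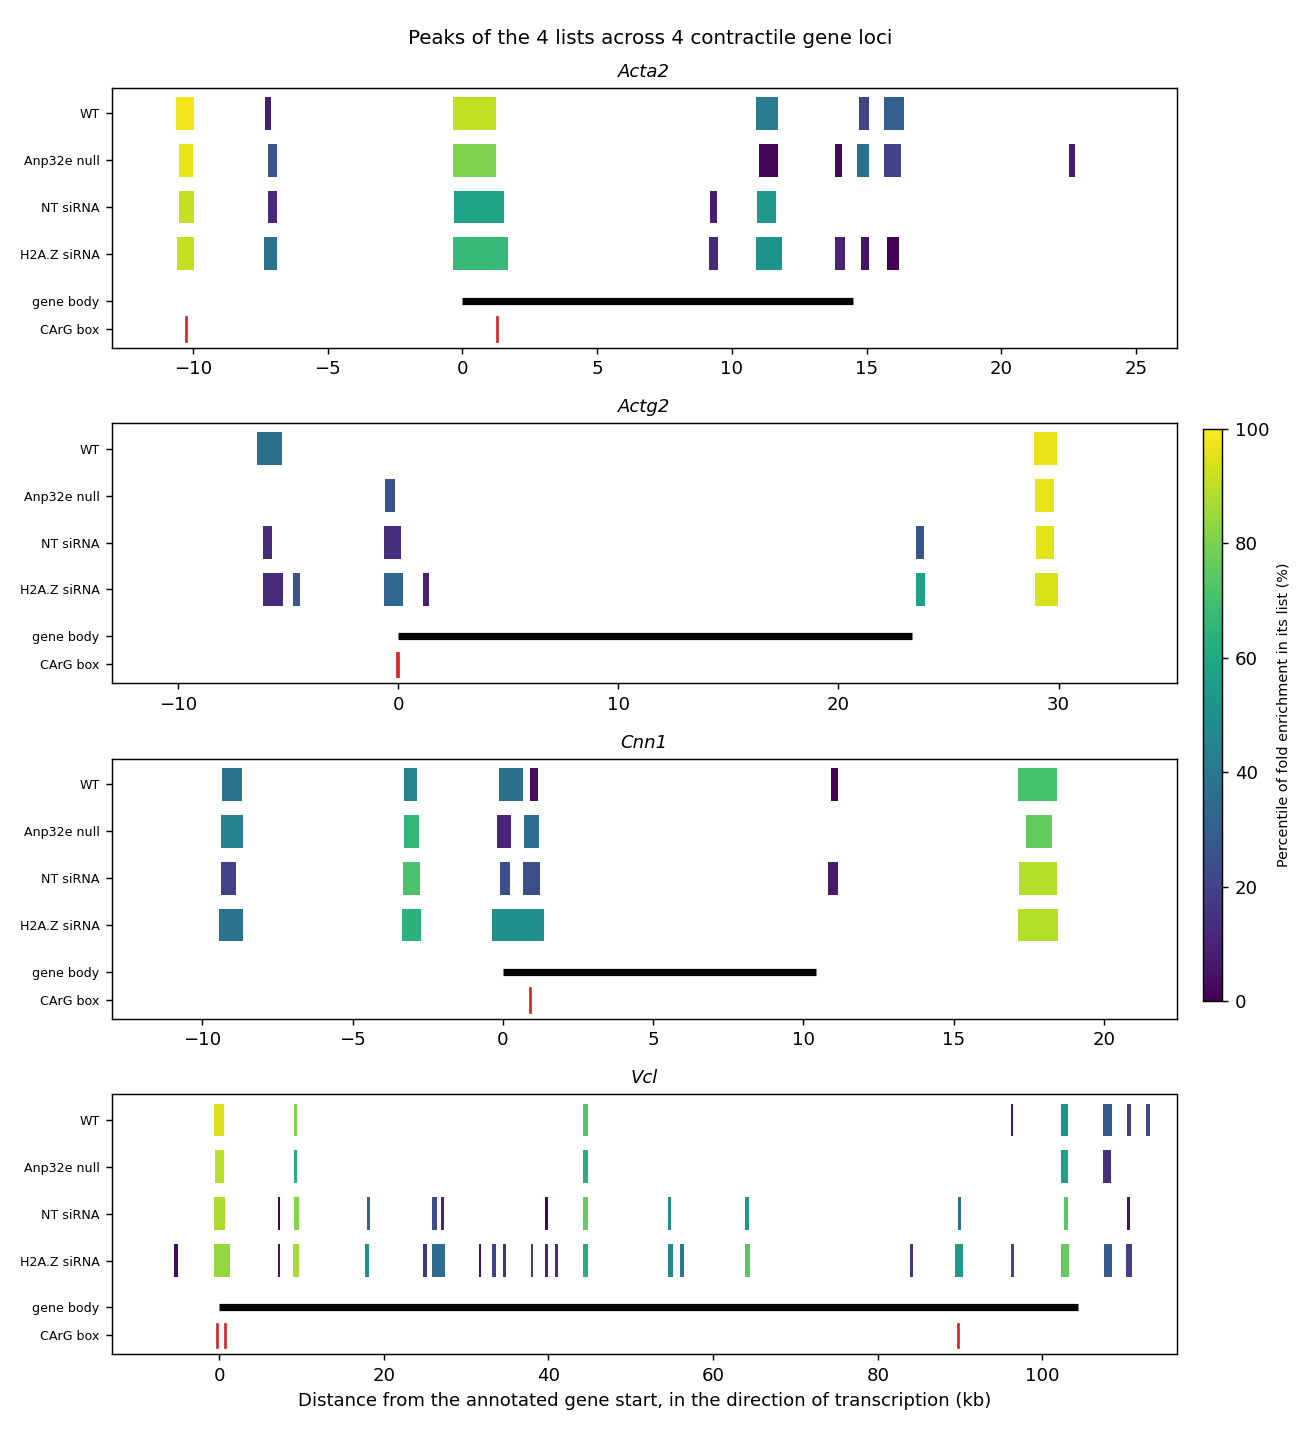
Peaks of the 4 lists across the Acta2, Actg2, Cnn1 and Vcl loci, by distance from the annotated gene start in the direction of transcription (kb). Boxes are peaks coloured by their percentile in the list, black bars are gene bodies and red ticks are exact CArG boxes. The Acta2 site 10.3 kb upstream is high in every list, Actg2 lacks a WT peak at 0, the Cnn1 peaks at 0 join with H2A.Z siRNA, and the Vcl gene body holds most sites in the siRNA lists.

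Exact CArG boxes were counted over whole sites as well. Of the 12 own-TSS sites, 8 held at least 1 box (66.7%), against 4.57% of all TSS sites, which are narrower (median width 1035 bp against 1703 bp for the members). In a window of 150 bp on either side of the summit the counts were 5 of 12 (41.7%) and 1.30%. The genes are known SRF targets, so the share describes them and was not tested. Among distal member sites, 3 of 54 held a box near the summit (5.56%), beside 2.05% of all sites away from TSSs.

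Other motifs near the summit were counted as well and not tested, and among 12 sites 1 site makes 8.33%. AP-1 (TGANTCA) was present on either strand at 23 of 54 distal member sites (42.6%) and at 37.6% of all sites away from TSSs, but at 1 of 12 own-TSS sites (8.33%) beside 16.6% of all TSS sites. TEAD (GGAATG) was at 4 of 12 own-TSS sites (33.3%, 16.5% of all TSS sites) and SP1 (GGGCGG) at 6 of 12 (50%, 38.5%). At distal sites TEAD was at 10 of 54 (18.5%, 27.1% of all sites away from TSSs) and SP1 at 2 of 54 (3.70%, 5.99%). Of the 12 sites within 1 kb of another gene's TSS, AP-1 was at 1, TEAD at 3 and SP1 at 4.

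In total the member sites held 19 exact boxes. A WT peak covered 11 of them, an Anp32e null peak 11, an NT siRNA peak 16 and an H2A.Z siRNA peak 19. Over 5535 exact boxes in all sites the shares were 61.2%, 61.0%, 61.7% and 85.5%, beside 57.9%, 57.9%, 84.2% and 100% for the members. The boxes covered in both siRNA lists and in neither untransfected list were 6 of 19 (31.6%), beside 8.35% of the 5535: those of the Acta2 intron, both at the Actg2 promoter, 1 in a Tpm1 intron, and in Vcl 1 past the TSS and 1 at the distal site 89.8 kb into the gene. A box inside a peak is a matter of where the peak edges fell, and binding of SRF was not measured.

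**Figure D5:**
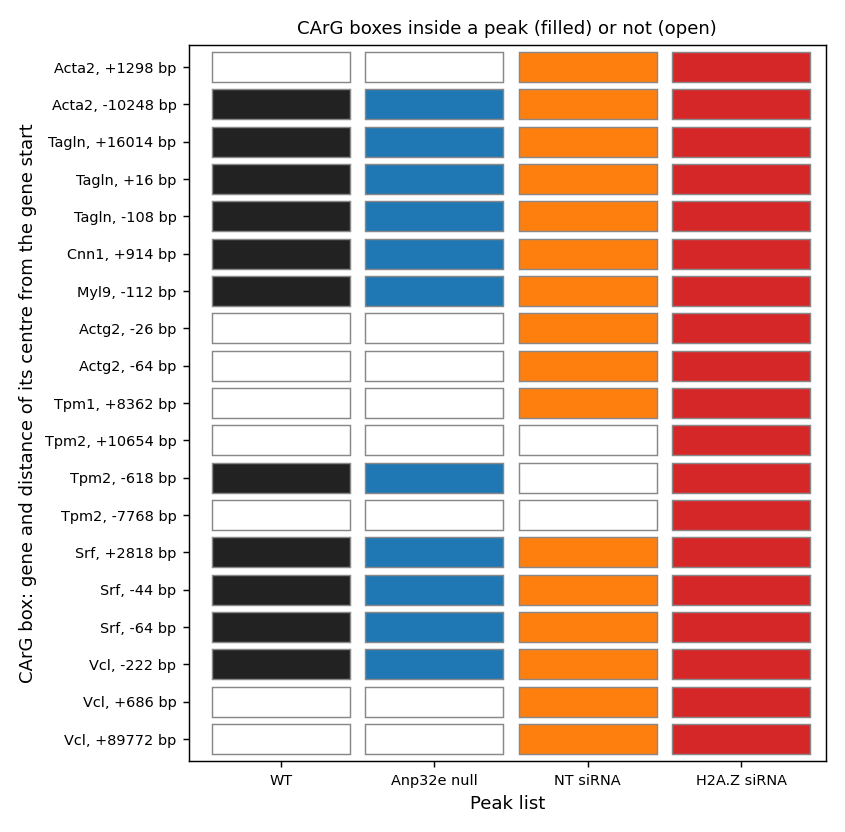
The 19 exact CArG boxes of the member sites (rows, by gene and distance from the gene start in bp) and the 4 peak lists (columns). A filled cell means that a peak of that list covers the box. WT and Anp32e null fill the same 11 rows, NT siRNA fills 16 and H2A.Z siRNA 19.

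Genes around this programme were taken from a list of SRF cofactors (6 genes found) and one of other actin and actin-binding genes (24 genes). A TSS peak was called in all 4 lists for 6 of 6 cofactors and 21 of 24 actin genes. The exceptions had a low fold percentile: Actc1 (cardiac actin) had a peak in WT alone (10.5), Acta1 (skeletal actin) with H2A.Z siRNA alone (1.13), and Cnn2 (calponin 2) with NT siRNA (2.13) and H2A.Z siRNA (0.642). The Cnn2 pileup was nevertheless 68.8 and 45.5 times the genome background, near the all-gene medians given above, whereas those of Actc1 and Acta1 were 2.60 and 2.58 times. From WT to Anp32e null, 1 of 21 actin genes was 10 points or more higher and 6 were lower, with a median difference of -2.51 points, and of the 6 cofactors 1 was higher and 1 lower. From NT siRNA to H2A.Z siRNA, 2 of 22 actin genes and 2 of 6 cofactors were higher and none was lower, with medians of 1.71 and 7.22 points. Over all genes 6.52%, 11.1%, 14.1% and 2.56% passed these marks, as above.

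Among the genes of these lists, the smooth-muscle myosin gene Myh11 had the largest positive difference in Anp32e null, from 15.6 to 40.2, and stood at 57.5 and 57.2 in the siRNA lists. Desmin (Des), another smooth-muscle gene, stood at 12.4, 15.8, 43.7 and 45.04, and the leiomodin gene Lmod1 at 71.9, 77.1, 91.4 and 89.3. All 3 smooth-muscle markers examined thus ranked higher in both siRNA lists than in either untransfected list. So did epithelial Cdh1 (36.7, 38.5, 68.2 and 58.3) and the fibroblast genes Col3a1 (23.5, 49.7, 53.2 and 62.6) and Thy1 (61.6, 61.6, 62.6 and 68.9). No other marker with a peak in all 4 lists did. The share of all genes with this order was not counted, and the part of such cells in the members' values was not tested. Among the actin genes and cofactors, the largest negative differences in Anp32e null were those of Actb (57.3 to 37.4) and Tln1 (80.4 to 62.5). Actb encodes the cytoplasmic beta actin and Tln1 the partner of vinculin at adhesions. Myocd, the SRF cofactor of smooth and cardiac muscle, had the largest positive difference among these genes with H2A.Z siRNA, from 29.6 to 52.8, and Flna was next, from 26.9 to 42.7. The MRTF genes Mrtfa (82.2 to 89.98) and Mrtfb (85.5 to 91.7) ranked above the all-gene TSS median, except Mrtfa with H2A.Z siRNA. From NT siRNA to H2A.Z siRNA, Actb (-8.10 points) and Tln1 (-7.13) had the largest negative differences among the same genes.

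By the 4 TSS percentiles, the gene outside these lists closest to Vcl was Cldnd1 (Euclidean distance 1.06 points over 4 lists) and the closest to Tpm1 was Foxd2 (1.20). Srf was nearest to Tspan31 (2.15), Tagln to Nrp1 (2.59), Myl9 to Zfpm1 (2.90) and Tpm2 to Clcn1 (3.89). Acta2 and Cnn1 had less close neighbours, Mybl1 at 5.62 and Slc6a8 at 6.42. The Mybl1 percentiles were 86.8 in WT, 78.3 in Anp32e null, 61.1 with NT siRNA and 68.6 with H2A.Z siRNA.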

How the data were processed

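Per the labels and the study's methods, ATAC-seq libraries were aligned to mm10 with Bowtie2, PCR duplicates were removed with Picard, and the libraries of a group were merged before MACS2 called peaks on paired fragments. A library of the H2A.Z knockdown experiment that was over-tagmented had been left out by the authors. Each deposited peak list gives the fold enrichment at the summit as a ratio with 1 added to pileup and local background, and p-values and q-values as −log10 values. No control library was stated, so the local background comes from the sample itself, over the genome or a wider surrounding window.

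Solving the fold and the deposited −log10 p-value for the Poisson model returned whole pileups (tolerance 0.05) for 100% of peaks in each list. The most frequent local background of a list was its genome background. WT had 84126 deposited peaks and Anp32e null 82640, and the lists were cut to chromosomes 1 to 19, X and Y, leaving 84040 and 82567. Percentiles are ranks of fold within a list, the highest-ranked peak standing for a gene. Intervals of a rank difference take the outer bounds of the exact Poisson intervals of both pileups, and ratios carry an exact 95% binomial interval. Both cover counting error only, and with 1 list per group there was no test. Genes were those of GENCODE M21, and sequences came from GRCm38.p6. Named genes followed fixed rules: all members, the 2 largest rises and falls among pathway genes, pathway genes lacking a peak in some lists, the nearest gene in pattern, and the 2 strongest sites per gene away from its own TSSs. One further list of pathway genes, 1 of them named by these rules, is not reported here. A few further sites, and the genes Mrtfa, Mrtfb, Des, Lmod1 and other cell type markers, were chosen after their values were seen. The members, lists and rules were chosen with earlier results of these data known. The alternatives were a −log10 q of 5, equal list length, equal genome background, rank by p-value or among TSS peaks, a 500 bp window, coding transcripts, summit assignment, other loci and overlaps, and 2 other depth scalings. Recovery, assignment and intervals were tested on simulated data. Python 3.11.15, NumPy 2.4.6, SciPy 1.17.1, pandas 2.3.3 and matplotlib 3.10.9 were used.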

Additional observations from a re-analysis of the deposited data

How the results depend on the processing

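No paired analysis was possible because the libraries of a group were merged into 1 list, and for the same reason no replicate could be left out. The median rank difference of the members lay between -2.19 and -0.29 points for Anp32e null against WT and between 1.89 and 11.8 for H2A.Z siRNA against NT siRNA, and neither changed sign. The Tagln call in Anp32e null was lost when ranked by p-value or among TSS peaks alone. Under the latter, and with a −log10 q of 5 or more, Acta2 was called lower and Myl9 higher. That q also added Acta2 and Myl9 to the members called higher with H2A.Z siRNA, 5 in place of 3, and Tpm2 was called lower with equal list lengths. Cnn1 was called under all 7 alternatives and Actg2 under all but equal list lengths. The Tagln call with H2A.Z siRNA was lost under 4 of the 7: rank by p-value, rank among TSS peaks alone, equal list lengths, and the summit inside the window, where 8 members had a TSS peak with NT siRNA. Equal list lengths gave 37 H2A.Z siRNA sites in the member loci, with 5 called in NT siRNA alone and 3 in H2A.Z siRNA alone. Scaling the lists to the same genome background, with no other depth statistic matched, gave 15 sites in H2A.Z siRNA alone. With a −log10 q of 5 or more, 1 site was called in NT siRNA alone, and with a reciprocal overlap of 50% 13 were. The gene body alone held 20 sites in WT, 18 in Anp32e null, and 43 sites for H2A.Z siRNA against 30 for NT siRNA, of which 4 were in WT and not Anp32e null, 2 the reverse, 1 in NT siRNA and not H2A.Z siRNA, and 14 the reverse. Leaving out sites at the TSS of another gene left 2 in Anp32e null alone. Shorter loci hold fewer sites by construction, and a reciprocal overlap splits sites. Scaling depth at the 1000 highest shared sites gave a median log2 ratio of -0.0607 for Anp32e null over WT and 0.18 for H2A.Z siRNA over NT siRNA, and scaling at shared TSS sites gave 0.0647 and 0.0799. The cause was not tested. The fewest fragments were counted at Actg2, with 18 to 70 in the lists that called it, and at Cnn1, with 34 to 282.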
